A study of Arabidopsis thaliana with 6 samples.

Results

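The genes described here encode proteins of the cytosolic large (60S) ribosomal subunit of Arabidopsis thaliana, from L3 to L24, without the acidic stalk proteins. They were taken from a list of 60 loci for 24 proteins, and a locus was kept where the array's probe table paired a probe set with that locus alone. This held for 33 loci of 15 proteins, out of 13355 genes of the series that had a probe set of their own. Of the other 27 loci, 6 shared 3 probe sets with a second listed locus and 21 had no paired probe set here. Poly-A RNA of 2 kinds of phloem sample was hybridised to Affymetrix ATH1 arrays, 3 arrays for exudate and 3 for tissue cut out by laser microdissection and pressure catapulting (LMPC). Exudate is the fluid that leaves cut sieve tubes, here collected with EDTA, a chelator that keeps the tubes from closing. The labels name no genotype, age or treatment for either group. Every sample came from plants kept in short days of 8 h light until flowering. Exudate RNA went through 2 rounds of linear amplification, and LMPC RNA through a SMART kit with 10 PCR cycles, so the amplification and the sample type cannot be told apart.

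A ribosome joins a small subunit, which reads the mRNA, to a large subunit, which forms the peptide bonds and holds the tunnel through which the new protein leaves. Each large subunit carries a single copy of nearly every one of its core proteins, and plants keep several genes, called paralogs, for most of them. Paralogs of a protein can differ in where and when they are expressed. Mature sieve elements have lost their nucleus and most of their ribosomes and depend on the companion cells beside them, so an mRNA found in sap was made in another cell or before the sieve element matured.

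The trimmed mean signal of an array (2% of probe sets removed at each end) lay between 17.8 and 28 for exudate, with array 3 the highest, and between 22.7 and 28.6 for LMPC phloem. The ratio of the 3' to the 5' signal of the actin control was 12.5 to 73.4 in exudate and 4.87 to 6.63 in LMPC phloem, that of GAPDH 5.99 to 34.7 and 36.8 to 48.6, and that of ubiquitin 6.24 to 8.94 and 8.62 to 10.5. Since nothing states that the arrays of a group stand for different plants, the spread behind each p-value may be technical. Of 11 phloem markers 4 had a probe set of their own, with a summed signal of 113 to 199 in exudate and 245 to 497 in LMPC phloem. Of these, 3 were lower and CLE44 was higher in exudate. CLE41 alone gave 149 to 322 in LMPC phloem, so the sum does not measure the content of a cell type. Not analysed here were PP2-A1, SEOR1, SEOR2, SUC2, AHA3, APL and SWEET12. The 3 photosynthesis markers of 7 that were measured were all higher in exudate and summed to 924 to 1805 against 183 to 745. The xylem marker measured, GUT2, lay at 16.0 to 33.5 against 64.9 to 80.6, and the cell division marker, AUR1, at 24 to 33 against 2.68 to 28.7. Without detection calls, low signals such as 0.4 to 19.9 for the phloem marker GTR2 in exudate do not show whether a cell type was present. The part of the other cell types and of RNA quality in the results below was not tested.

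Large subunit genes were more often higher than lower in exudate. A locus was tested where its signal passed the 40th percentile of at least 3 arrays, which left 32. Of these, 13 were called higher and 1 lower at an adjusted p under 0.05 (limma on log2(signal + 16), Benjamini-Hochberg adjustment over 15320 probe sets). This was 40.6% of the loci called higher, against 6.23% of all 8633 genes tested, and 3.12% called lower, against 17.5% of all genes. Among genes of a mean signal above 100, a level that 24 of the 33 loci also passed, 21.5% were called higher and 37.2% lower. The 40.6% above also covers the dimmer loci, so these shares are not of like sets. The median log2 difference, exudate minus LMPC phloem, was 0.54 over the 32 loci and -0.32 over all genes tested, and 23 loci stood above 0. The 3 exudate arrays lay above all 3 LMPC arrays for 13 loci (40.6%, against 9.56% of all genes) and below them for 3 (9.38%, against 29.7%). In bulk samples, fewer cells of a type and less RNA per cell cannot be told apart. A locus that passed the filter only through its brighter group had to differ. How many did so was not determined, and none was left out of the counts above. The called loci dimmest in 1 group were AT3G16780 (L19), at 1.2 to 10.3 in LMPC phloem, and AT4G10450 (L9), at 0.6 to 25.8 in exudate. AT3G48960 (L13) was the 1 locus that did not pass the filter, with signals of 0.9 to 6.7 in exudate and 0.9 to 17.4 in LMPC phloem.

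**Figure D1:**
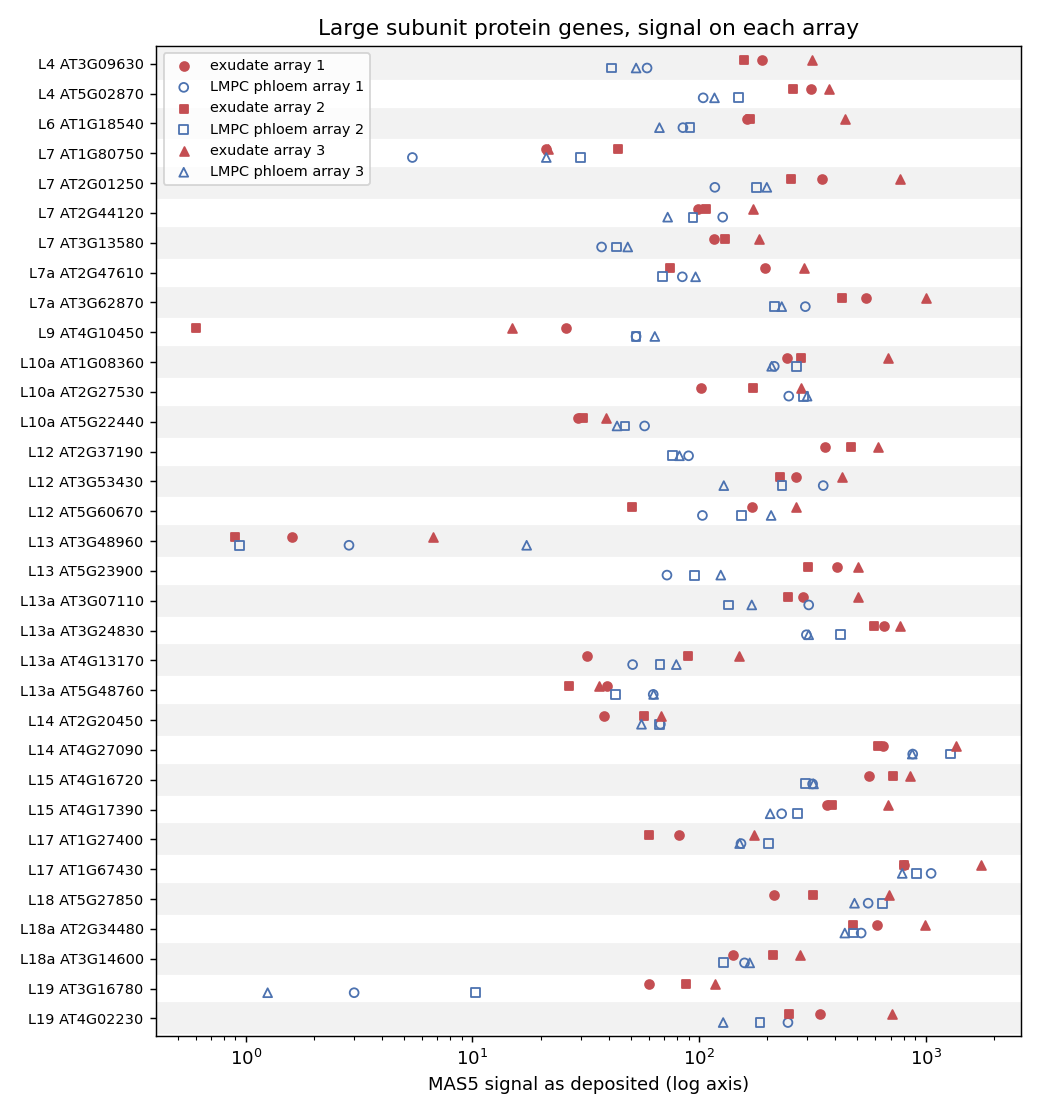
MAS5 signal of the 33 loci on each of the 6 arrays (log axis), with exudate as filled red and LMPC phloem as open blue symbols and the array number as the symbol shape. Exudate array 3 is the highest exudate array for 30 of the 33 loci, and for 13 loci all exudate symbols lie to the right of all LMPC symbols.

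The level in exudate rested in part on array 3. It gave the highest exudate signal for 30 of the 33 loci (90.9%), against 50.6% of all genes tested, and its median ratio to the mean of exudate arrays 1 and 2 was 1.82 over the 32 loci and 1.32 over all genes. After quantile normalization array 3 was the highest exudate array for 10 of the 33 loci, against 31.4% of all genes tested. The median SD was 39.4% of the mean in exudate and 17.1% in LMPC phloem as deposited, and 22.0% and 22.9% after quantile normalization. Without exudate array 3, 7 loci were called higher and 4 lower (all genes 3.55% and 19.4%), and the median difference was 0.31, against -0.41 for all genes. The scaling of the arrays moved the counts as well. Higher and lower calls numbered 15 and 1 after quantile normalization (all genes 10.1% and 12.8%), 19 and 1 after median centring (11.6% and 10.5%), 16 and 1 after centring on 6 reference genes (8.75% and 11.6%), and 25 and 0 after centring on the hybridization spike-ins (24.3% and 3.95%). Of the 6 reference genes, 2 (GAPC2 and TUB5) were themselves called higher and 1 (PEX4) lower as deposited, so they are not shown to be stable. A pseudocount of 1 in place of 16 left 5 limma calls higher and 0 lower (all genes 4.42% and 13.9%), although the median difference was 0.72. The 13 loci called higher as deposited kept that call under each of the 4 scalings. All 4 moved the median of all genes upward, from -0.32 to -0.09, -0.06, -0.16 and 0.35 in the order given. A higher call was thus easier to keep, and its being kept is no check on it. The median of the 32 loci minus that of all genes was 0.85 as deposited and 0.82, 1.11, 1.01 and 1.49 in the same order.

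**Figure D2:**
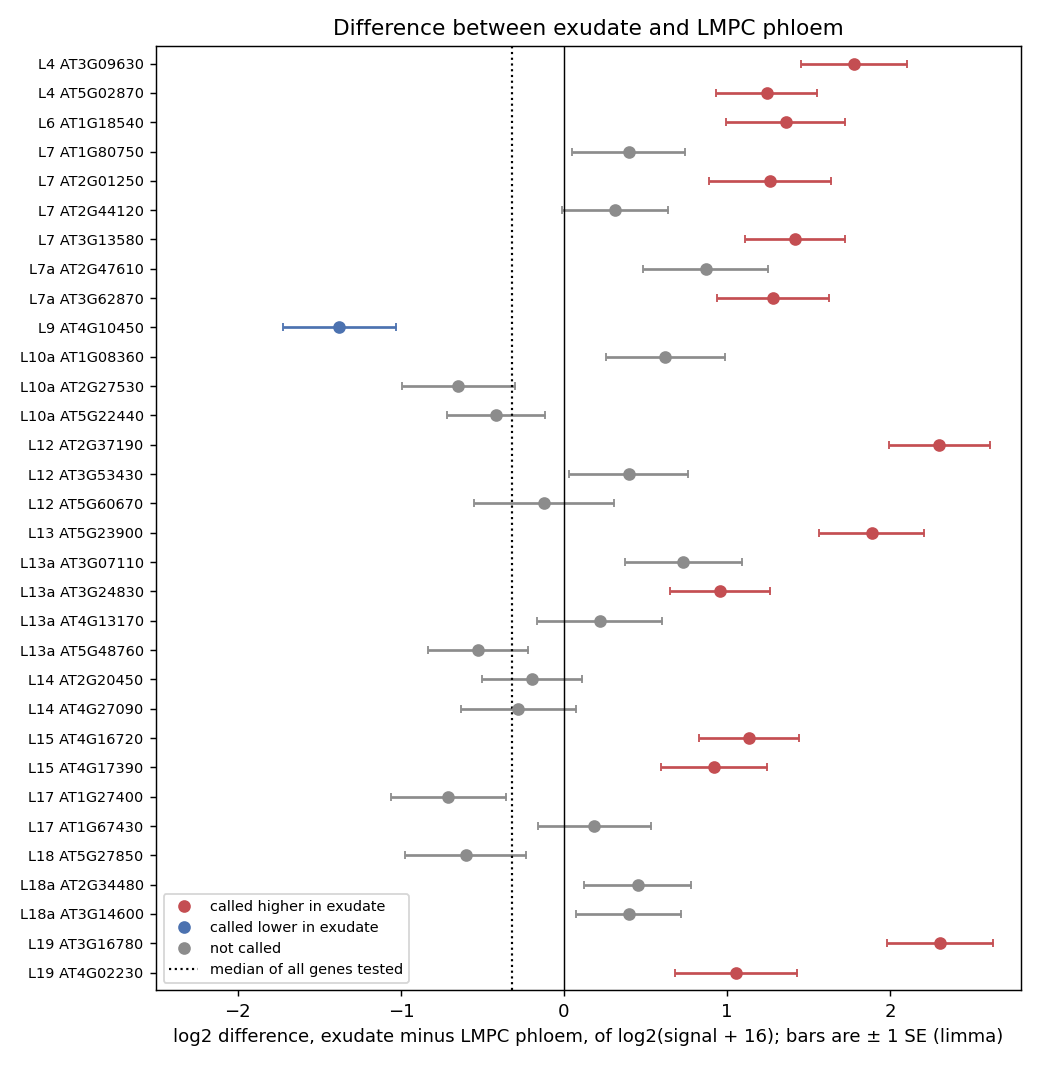
Log2 difference between exudate and LMPC phloem for each of the 32 tested loci (points) with its limma standard error (bars, n = 3 arrays per group), coloured by call, with the median of all genes tested as a dotted line. The called loci reach from 0.92 to 2.31 above 0, and AT4G10450 (L9) at -1.38 is the only one called lower.

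Both measured genes of L4, a protein whose loop reaches into the wall of the exit tunnel, were higher in exudate. AT3G09630 had signals of 189.7, 157.2 and 316.4 on exudate arrays 1, 2 and 3 and of 59.0, 40.9 and 52.8 on LMPC arrays 1, 2 and 3, an order kept for all values below. AT5G02870 had 312.4, 259.3 and 373.7 in exudate and 104.3, 149.8 and 117.0 in LMPC phloem. For both genes every exudate array lay above every LMPC array. The log2 difference was 1.78 ± 0.33 (SE, limma, adjusted p = 0.000559) for AT3G09630 and 1.24 ± 0.31 (adjusted p = 0.00632) for AT5G02870. The first kept its call under all 13 alternatives. The second lost it with a pseudocount of 1 (adjusted p = 0.0895).

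L17 also lines the exit tunnel, and its genes did not pass the test as deposited. AT1G27400 had 81.7, 60.3 and 174.0 in exudate and 153.2, 202.3 and 151.1 in LMPC phloem (-0.71 ± 0.35, limma adjusted p = 0.148). AT1G67430, the brightest probe set of all 33 loci on its exudate array 3, had 802.1, 799.7 and 1759.8 in exudate and 1057.6, 913.5 and 788.6 in LMPC phloem (0.19 ± 0.35, adjusted p = 0.726). The groups of both genes overlapped, with exudate array 3 inside or above the LMPC range. Without that array AT1G27400 was called lower (-1.09, adjusted p = 0.0237) and AT1G67430 turned to -0.19. After centring on spike-ins AT1G67430 was called higher (1.53, adjusted p = 0.000891) and AT1G27400 turned to 0.49.

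L12 sits at the base of the stalk to which translation factors bind, and it held 1 of the 2 largest differences. AT2G37190 had 361.5, 468.7 and 613.6 in exudate and 89.9, 76.4 and 81.9 in LMPC phloem, means of 481 ± 127 and 82.7 ± 6.82 (SD, n = 3). The groups were far apart, and the log2 difference was 2.30 ± 0.31 (limma adjusted p = 2.41e-05). Its paralog AT3G53430 had 267.1, 226.7 and 425.7 in exudate and 353.3, 232.3 and 128.6 in LMPC phloem (0.40 ± 0.37, adjusted p = 0.448), and was called higher after median centring (0.90, adjusted p = 0.048) and spike-in centring (1.68, 0.000387). The other paralog, AT5G60670, had 170.6, 50.5 and 269.0 in exudate and 103.5, 153.9 and 208.1 in LMPC phloem (-0.12 ± 0.43, adjusted p = 0.864). For both paralogs the groups overlapped over most of their range. The difference of AT5G60670 turned to 0.34 after median centring, 0.15 after centring on reference genes, 1.06 after centring on spike-ins (adjusted p = 0.0412), 0.48 without exudate array 2 and 0.10 without LMPC array 3.

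The call in the other direction belonged to L9, which lies beside the site where elongation factors act. AT4G10450 had 25.8, 0.6 and 15 in exudate and 52.7, 52.7 and 63.8 in LMPC phloem. The groups did not overlap, and the exudate values were among the dimmest of the 33 loci. Its log2 difference was -1.38 ± 0.35 (limma adjusted p = 0.00696). The call was lost without exudate array 2 (-1.0, adjusted p = 0.0511), with a pseudocount of 1 (-2.70, 0.0628) and after centring on spike-ins (-0.69, 0.182).

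L10a forms the mobile L1 stalk, which moves as a spent tRNA leaves the ribosome. None of its 3 genes was called as deposited, and they lay on both sides of 0. AT1G08360 had 244.6, 281.8 and 683.1 in exudate and 214.9, 269.7 and 209.2 in LMPC phloem (0.62 ± 0.36, limma adjusted p = 0.219), and it was called higher after median centring (1.12, adjusted p = 0.0139), reference gene centring (0.93, 0.0474) and spike-in centring (1.90, 0.000176). AT2G27530 is PGY1, whose loss alters leaf polarity in a sensitised mutant background. It had 101.9, 172.3 and 281.3 in exudate and 248.9, 288.0 and 299.8 in LMPC phloem (-0.65 ± 0.35, adjusted p = 0.179). AT5G22440 had 29.1, 30.9 and 38.8 in exudate and 57.5, 47.2 and 43.5 in LMPC phloem, without overlap (-0.42 ± 0.30, adjusted p = 0.325). Without exudate array 3 PGY1 was called lower (-0.98, adjusted p = 0.0435). After centring on spike-ins PGY1 turned to 0.62 and AT5G22440 to 0.56.

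L19 reaches across the interface to the small subunit, and both of its measured genes were higher in exudate. AT3G16780 had 59.9, 87.6 and 117.2 in exudate and 3.0, 10.3 and 1.2 in LMPC phloem. The groups were apart on the log2(signal + 16) scale by 2.31 ± 0.33 (limma adjusted p = 3.73e-05). All LMPC values lay under the pseudocount of 16 and are not shown to be above background, so no fold is given. AT4G02230 had 341.1, 249.3 and 709.0 in exudate and 246.9, 185.9 and 127.8 in LMPC phloem, where the lowest exudate value was just above the highest LMPC value. Its difference of 1.06 ± 0.37 passed (adjusted p = 0.0445). It did not pass without exudate array 1 (adjusted p = 0.0732) or 3 (0.204), without LMPC array 2 (0.077) or 3 (0.16), with a pseudocount of 1 (0.201) or with no filter on dim probe sets (0.132).

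The remaining proteins bind ribosomal RNA in the body of the subunit, and 8 of their 19 tested genes were called higher and 0 lower by limma, against 6.23% and 17.5% of all genes. L13 had the largest difference among them. Its gene AT5G23900 had 405.5, 304.1 and 500.9 in exudate and 72.2, 95.1 and 124.7 in LMPC phloem, and the groups did not overlap. The log2 difference was 1.89 ± 0.32 (limma adjusted p = 0.00027) and was called under all 13 alternatives. L6 was measured through AT1G18540, which had 163.5, 168.4 and 441.5 in exudate and 84.9, 91.3 and 66.9 in LMPC phloem (1.36 ± 0.36, adjusted p = 0.0100). The groups did not overlap, though exudate array 3 stood far above the other two. Without that array the difference was 0.92 (adjusted p = 0.0541), and the call was also lost with a pseudocount of 1 (0.0913) and with no filter (0.0542).

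L7 was measured through 4 genes, of which 2 were called higher. AT3G13580 had 116.7, 129.6 and 184.0 in exudate and 37.2, 43.3 and 48.5 in LMPC phloem (1.42 ± 0.31, limma adjusted p = 0.00244), and kept its call under all 13 alternatives. AT2G01250 had 349.8, 254.8 and 769.5 in exudate and 117.5, 178.8 and 199.2 in LMPC phloem (1.27 ± 0.37, adjusted p = 0.0185). In both genes the exudate arrays lay above the LMPC arrays. AT2G01250 was not called without exudate array 3 (0.83, adjusted p = 0.093), without LMPC array 1 (1.06, 0.0699), with a pseudocount of 1 (0.133) or with no filter (0.0831). AT2G44120 had 98.8, 107.5 and 173.8 in exudate and 127.2, 94.1 and 72.7 in LMPC phloem, an overlap with no call (0.31 ± 0.33, adjusted p = 0.508). AT1G80750 was dim in both groups, at 21.1 to 43.9 in exudate and 5.4 to 30.0 in LMPC phloem (0.40 ± 0.35, adjusted p = 0.424). Both were called higher after centring on spike-ins (1.5 and 1.17, adjusted p = 0.000989 and 0.0242).

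L7a had 1 gene called higher and 1 not called. AT3G62870 had 546.0, 426.5 and 1008.9 in exudate and 294.6, 215.1 and 231.8 in LMPC phloem (1.28 ± 0.34, limma adjusted p = 0.0104). AT2G47610 had 194.6, 74.8 and 289.8 in exudate and 84.4, 68.8 and 96.6 in LMPC phloem (0.87 ± 0.38, adjusted p = 0.103). Exudate array 2 of AT2G47610 fell inside the LMPC range, and without it the gene was called (1.36, adjusted p = 0.0111). It was also called higher after quantile normalization (adjusted p = 0.0426), median centring (0.00818), reference gene centring (0.0123) and spike-in centring (8.43e-05). AT3G62870 was not called without exudate array 3 (0.93, adjusted p = 0.0516) or with a pseudocount of 1 (0.113).

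Both genes of L15 were higher in exudate by similar amounts. AT4G16720 had 562.5, 719.5 and 852.7 in exudate and 317.1, 294.6 and 320.2 in LMPC phloem (1.14 ± 0.31, limma adjusted p = 0.0106). AT4G17390 had 365.4, 385.5 and 684.0 in exudate and 231.6, 271.0 and 206.0 in LMPC phloem (0.92 ± 0.33, adjusted p = 0.0446). Neither gene's groups overlapped. The call of AT4G17390 was lost whichever of the 6 arrays was left out (adjusted p between 0.0534 and 0.185) and with a pseudocount of 1 (0.218), no filter (0.0672) or the replicate number as a block (0.0644), while AT4G16720 lost its call with a pseudocount of 1 only (0.126).

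L13a is known in human cells also for leaving the ribosome to repress certain inflammatory mRNAs. Of its 4 genes, AT3G24830 was called higher, with 653.0, 591.4 and 772.4 in exudate and 297.8, 420.5 and 304.7 in LMPC phloem (0.96 ± 0.31, limma adjusted p = 0.0288). AT3G07110 had 287.4, 247.3 and 503.7 in exudate and 304.9, 134.9 and 170.9 in LMPC phloem (0.73 ± 0.36, adjusted p = 0.143), and it was called higher after quantile normalization (0.88, adjusted p = 0.0383), median centring (1.23, 0.0071), reference gene centring (1.04, 0.0221) and spike-in centring (2.0, 6.85e-05). AT5G48760 had 39.1, 26.8 and 36.3 in exudate and 62.8, 42.9 and 63.1 in LMPC phloem (-0.52 ± 0.31, adjusted p = 0.221). The groups of AT3G24830 and AT5G48760 did not overlap and lay in opposite order, while those of AT3G07110 overlapped through LMPC array 1. AT3G24830 lost its call without exudate array 1 (adjusted p = 0.0736) or 3 (0.0759), without LMPC array 1 (0.0999) or 3 (0.0891) and with a pseudocount of 1 (0.191). AT5G48760 turned to 0.46 after centring on spike-ins. AT4G13170 had 32 to 149.9 in exudate and 50.9 to 79.4 in LMPC phloem (0.22 ± 0.39, adjusted p = 0.713), and turned to -0.19 without exudate array 3 and to a higher call after centring on spike-ins (1.30, 0.0169).

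The genes of L14, L18 and L18a were not called by limma as deposited, and their groups overlapped. L14, with AT4G27090 at 614.3 to 1368.6 in exudate and 873.1 to 1288.3 in LMPC phloem, gave -0.28 ± 0.35. Its paralog AT2G20450 lay at 37.9 to 67.9 and 55.7 to 67.5 and gave -0.20 ± 0.31. The sign of both L14 genes turned after median centring (0.24 and 0.22), after centring on reference genes (0.04 and 0.06) and after centring on spike-ins (1.06 and 0.87), where AT4G27090 was called (adjusted p = 0.0183). L18, measured through AT5G27850, lay at 214.3 to 690.8 in exudate and 485.5 to 643.1 in LMPC phloem (-0.60 ± 0.37, adjusted p = 0.246). Without exudate array 3 it was called lower (-1.05, adjusted p = 0.0297), and after centring on spike-ins it was 0.71. The L18a genes AT2G34480 and AT3G14600 stood at 0.45 ± 0.33 and 0.40 ± 0.32 (adjusted p = 0.329 and 0.385). Both were called higher after median centring (0.97 and 0.88, adjusted p = 0.0223 and 0.0379) and after spike-in centring (1.77 and 1.64, adjusted p = 0.000144 and 0.000946).

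The paralogs of a protein were then compared within each array, as the difference of their log2(signal + 16), which a factor common to the whole array changes only through the pseudocount. Probe sets differ in how strongly they bind, so the ratio itself has no meaning as a ratio of transcripts, and its change between the groups is the quantity given. Whether the probes of a gene also bind its paralog was not tested. The 28 tested loci of 11 proteins formed 25 pairs, which share loci and are not independent. For 10 pairs (40%) the ratio on all 3 exudate arrays lay on one side of that on all 3 LMPC arrays. The same held for 59.9% of the 471 pairs of tested loci from different large subunit proteins and for 37.6% of all pairs of genes tested in the series. An exact two-sided permutation test of 3 against 3 arrays cannot give a p under 0.1, the value that each of the 10 pairs had, so no pair could pass a threshold of 0.05.

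**Figure D3:**
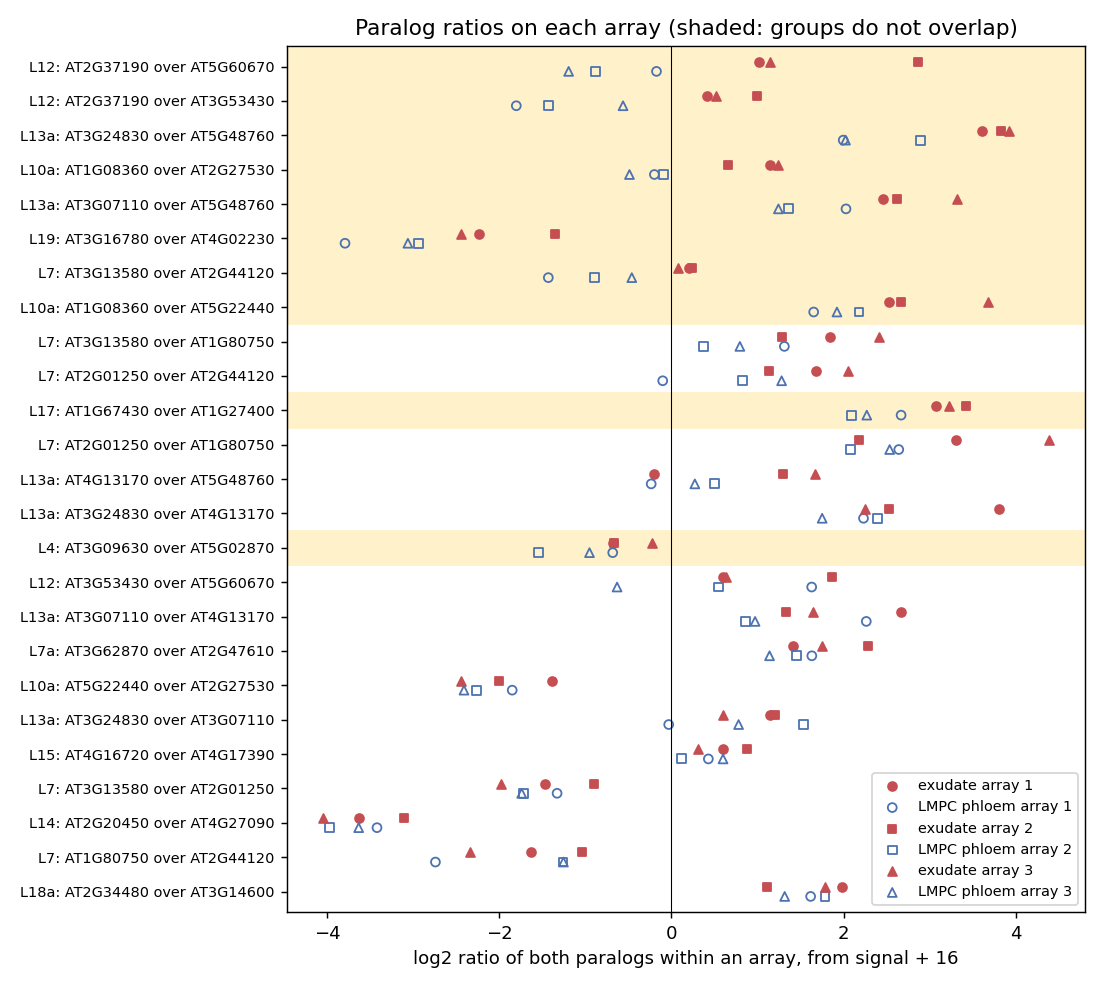
Log2 ratio of both paralogs on each of the 6 arrays for the 25 pairs, ordered by the change between the groups, with exudate as filled red and LMPC phloem as open blue symbols. Shading marks the 10 pairs whose groups do not overlap, with the L12 pairs of AT2G37190 at the top and the L18a pair at the bottom.

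The L12 genes separated most. The log2 ratio of AT2G37190 to AT5G60670 was 1.68 ± 1.03 in exudate and -0.75 ± 0.52 in LMPC phloem (SD, n = 3), a change of 2.42 (exact p = 0.1). Its ratio to AT3G53430 was 0.42, 1.00 and 0.51 on the exudate arrays and -1.80, -1.43 and -0.56 on the LMPC arrays, a change of 1.91 (exact p = 0.1). The signals of AT2G37190 above thus moved apart from those of both paralogs, while the ratio between AT3G53430 and AT5G60670 overlapped between the groups (0.52, exact p = 0.4).

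In L13a, the ratio of AT3G24830 to AT5G48760 was 3.78 ± 0.16 in exudate and 2.30 ± 0.51 in LMPC phloem, a change of 1.48, and that of AT3G07110 to AT5G48760 changed by 1.26 (exact p = 0.1 for each, n = 3 per group). The ratio of AT3G24830 to AT3G07110 changed by 0.22 and overlapped (exact p = 0.7). In L10a, the ratio of AT1G08360 to PGY1 was 1.14, 0.66 and 1.23 in exudate and -0.20, -0.09 and -0.49 in LMPC phloem, a change of 1.27, and that of AT1G08360 to AT5G22440 changed by 1.04 (exact p = 0.1 for each). As deposited, none of the 3 L10a genes was called on its own. Where groups do not overlap, leaving out 1 array cannot turn the sign of the change, so only its range is given. The ranges were 1.33 to 1.77, 1.0 to 1.5, 1.16 to 1.45 and 0.68 to 1.25 in the order of the non-overlapping pairs given.

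In L7, the ratio of AT3G13580 to AT2G44120 was 0.17 ± 0.09 in exudate and -0.93 ± 0.49 in LMPC phloem, a change of 1.10 (exact p = 0.1). The ratio of both L7 genes called higher, AT3G13580 to AT2G01250, changed by 0.15 and overlapped (exact p = 0.7). In L17, the ratio of AT1G67430 to AT1G27400 was 3.24 ± 0.18 in exudate and 2.34 ± 0.29 in LMPC phloem, a change of 0.90 without overlap, although neither gene was called as deposited. In L19, the ratio of AT3G16780 to AT4G02230 changed by 1.25 (exact p = 0.1), and by 3.09 with a pseudocount of 1, since the dim LMPC values of AT3G16780 lie under 16. In L4, the ratio of AT3G09630 to AT5G02870 changed by 0.53, with the closest exudate and LMPC arrays at -0.67 and -0.68.

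The other proteins kept closer ratios. The change was 0.22 for the L15 pair, 0.41 for L7a, 0.08 for L14 and 0.05 for L18a, and the groups overlapped in each of these pairs (exact p between 0.3 and 1). The L18a ratio of AT2G34480 to AT3G14600 was 1.62 ± 0.45 in exudate and 1.57 ± 0.24 in LMPC phloem (SD, n = 3). A p that misses the threshold does not show that paralogs moved alike.

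Other lists of cytosolic ribosomal proteins were counted in the same way. Of 53 listed loci for L26 to L41, also of the large subunit, 30 were tested, and 1 was called higher and 5 lower, with a median log2 difference of -0.22. That median turned to 0.18 after median centring, 0.03 after centring on reference genes, 0.96 after centring on spike-ins and 0.13 without exudate array 2. Of 98 listed loci of the small subunit (40S), 45 were tested, and 7 were called higher and 7 lower, with a median of -0.05, which the 4 scalings turned to between 0.13 and 1.08. It was also above 0 without LMPC array 1 (0.18), 2 (0.035) or 3 (0.13) and without exudate array 2 (0.19). The background is as above, 6.23% higher and 17.5% lower with a median of -0.32. The median of the 32 loci from L3 to L24, 0.54, was the highest of the 3 lists as deposited and under each of the 13 alternatives. The difference between the lists was not tested.

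**Figure D4:**
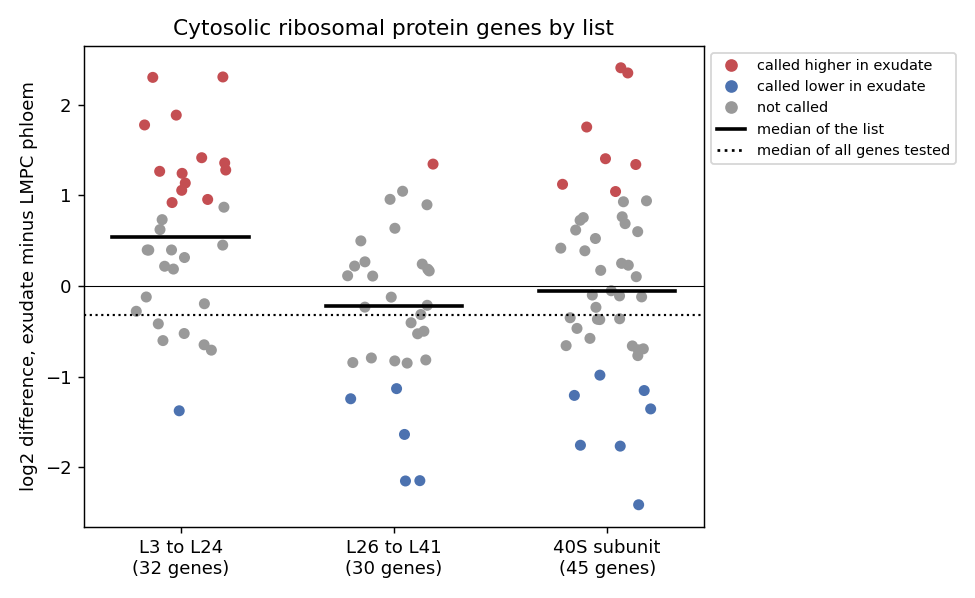
Log2 difference between exudate and LMPC phloem for each tested gene of L3 to L24, L26 to L41 and the 40S subunit (points coloured by call, spread sideways at random), with the median of each list as a bar and that of all genes tested as a dotted line. The bars stand at 0.54, -0.22 and -0.05, and 13, 1 and 7 genes are called higher.

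In L26 to L41, the gene called higher was AT4G26230 (L31), with 541.5, 472.3 and 949.5 in exudate and 148.4, 366.1 and 238.8 in LMPC phloem (1.35 ± 0.36, limma adjusted p = 0.0109). The lower gene of smallest adjusted p was AT3G02190 (L39), at 106.8 to 136.9 in exudate and 518.5 to 722.1 in LMPC phloem (-2.15, adjusted p = 3.96e-05), followed by AT3G06680 (L29) at -2.15 (0.00033). In the small subunit AT4G34670 (S3a) at 2.41 and AT2G41840 (S2) at 2.35 led the higher genes, and AT2G16360 at -2.41 and AT4G34555 at -1.76, both of S25, the lower ones, in order of adjusted p (adjusted p between 2.01e-05 and 0.000926). Of 20 entries for translation and nucleolar factors 3 were tested, and AT5G12110 of the elongation factor eEF1B was called higher (1.09, adjusted p = 0.0222).

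Ribosomal proteins are numbered roughly from large to small, and the gene spans (introns included, assembly TAIR10.1) followed that order in part. The median span was 1722 bases for the 32 loci of L3 to L24, 1326 for L26 to L41 and 1591 for the 40S genes. Across the 107 genes of the 3 lists, longer spans went with higher values in exudate (Spearman's rho = 0.412), and within the lists rho was 0.062 for L3 to L24, 0.105 for L26 to L41 and 0.572 for the 40S genes. Over 8614 genes of the series rho was 0.132, and the median log2 difference was -0.51 in the fifth of genes with the shortest spans (up to 1370 bases) and -0.34 in the next (up to 1918 bases). These genes share arrays and amplification, so the correlations are descriptions, and the part of transcript length in the result was not tested.

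**Figure D5:**
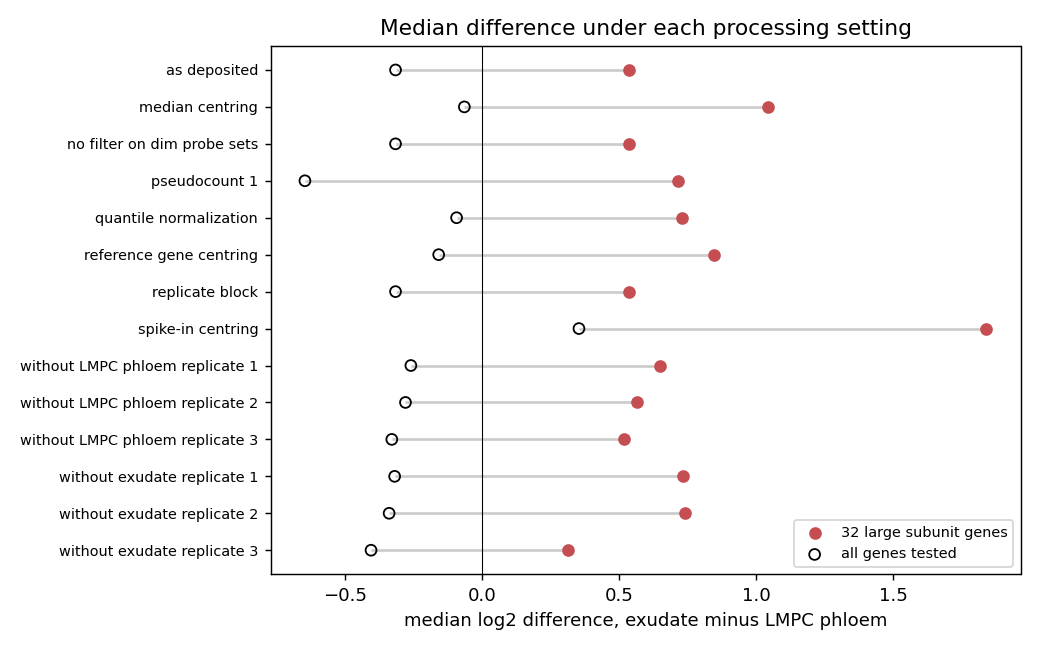
Median log2 difference between exudate and LMPC phloem of the 32 large subunit loci (filled red) and of all genes tested (open black) for the values as deposited and under each of 13 alternatives. The large subunit median lies above that of all genes in each row, from 0.31 without exudate array 3 to 1.84 after centring on spike-ins.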

How the data were processed

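The authors deposited intensity on a linear scale, made with MAS5 per the submitters' processing notes. The sources used here state no scaling target and no detection calls. Probe sets were named through the platform's probe table and the gene table of TAIR10.1 (13436 of 13513 single-gene probe sets matched). A locus was measured by its single-gene probe set of highest mean, and no member had more than 1. limma 3.58.1 (R 4.3.3) was fitted to log2(signal + 16) of all 15320 probe sets above the 40th percentile on at least 3 of 6 arrays, with no covariate. Paralog ratios had exact permutation tests (scipy 1.17.1). The fit was also run on simulated data with independent noise for each probe set. No effect shared by a whole array was simulated, so that run is no check on the calls given here. Alternatives were 4 scalings, a pseudocount of 1, no filter, the replicate number as a block, probe sets without _s_ or _x_ in their name, and leaving out each array. Members, lists and tests were chosen with earlier results of these data known. Signals on every array are given for called members, for pairs without overlap and for the 3 uncalled members of largest difference, and at most the 2 strongest genes per direction of the other lists. No sequence is printed, as none was at hand. The level of 100 for bright genes was chosen after values were seen. Control probe sets (64) were used only as controls. The LMPC extract protocol speaks of exudate, and groups were taken from the titles.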

Additional observations from a re-analysis of the deposited data

How the results depend on the processing

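Among the 32 large subunit loci, 13 were called higher and 1 lower as deposited, with a median log2 difference of 0.54. With a pseudocount of 1 the calls were 5 and 0, after centring on spike-ins 25 and 0, and the median was 1.04 after median centring and 1.84 after centring on spike-ins. Leaving out 1 array at a time gave 7 to 13 higher, 0 to 4 lower and a median of 0.31 to 0.74. Over all genes these omissions gave 3.55% to 5.77% higher and 11% to 19.4% lower. Quantile normalization, reference gene centring and no filter (9 higher, 1 lower, all genes 4.44% and 15%) kept both counts within 1.5 times. Keeping only probe sets without _s_ or _x_ in their name changed nothing for the members. The share of higher calls among all calls was 33.8% as deposited and 51.1%, 59.1%, 50.6% and 88.5% after quantile normalization, median centring, reference gene centring and spike-in centring, with 1303 higher and 2550 lower probe sets as deposited, 1982 and 1896, 2246 and 1552, 1761 and 1717, and 4349 and 564.

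Some differences that were not called as deposited turned sign. Spike-in centring gave 0.49 for AT1G27400, 0.62 for AT2G27530, 0.56 for AT5G22440, 1.06 for AT5G60670, 0.71 for AT5G27850, 0.46 for AT5G48760, 0.87 for AT2G20450 and 1.06 for AT4G27090. Median centring gave 0.34 for AT5G60670, 0.22 for AT2G20450 and 0.24 for AT4G27090, and reference gene centring 0.15, 0.056 and 0.041. Leaving out 1 array at a time gave -0.19 (without exudate array 3) to 0.37 for AT1G67430, -0.19 (without exudate array 3) to 0.70 for AT4G13170, and -0.57 to 0.48 for AT5G60670, which was positive without exudate array 2 or LMPC array 3.

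Calls of L26 to L41 (1 higher and 5 lower as deposited) came to 6 higher after median centring, 5 after quantile normalization, 5 after reference gene centring, 16 higher and 2 lower after spike-in centring, 0 higher with no filter, and 0 higher and 2 lower with a pseudocount of 1. Without 1 array they ranged from 0 to 4 higher and from 3 to 9 lower. Calls of the 40S genes (7 and 7) came to 17 and 3 after median centring, 12 higher after quantile normalization, 15 after reference gene centring, 26 and 1 after spike-in centring, 3 higher with no filter and 3 with a pseudocount of 1, and ranged from 3 to 10 in each direction without 1 array. The translation factors had 1 higher call, 2 after median or reference gene centring, 3 after spike-in centring, 0 with no filter and 0 to 1 without 1 array. The cause of these changes was not tested.

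With the replicate number as a block, 12 members were called higher and 1 lower (all genes 5.7% and 15.1%). AT4G17390 alone lost its call (limma adjusted p = 0.0644). Same-numbered arrays correlated at -0.0044, -0.016 and -0.074 in their deviations from the group means, and no array correlated best with its own number, so the numbers were not taken as pairs. With 3 arrays a group, and no stated scaling target, the number of arrays limits what could be called.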

Other observations

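The 3 probe sets paired with 2 listed loci each stand for no locus alone, but both loci of each encode the same protein. The L9 probe set had signals of 85.1, 68.4 and 131.2 on the exudate arrays and 276, 372 and 230.4 on the LMPC arrays, without overlap (-1.49 ± 0.33, limma adjusted p = 0.00251), and so lay on the same side as AT4G10450, the L9 gene described above. The L6 probe set had 173.2, 131.6 and 366.6 in exudate and 109, 80.1 and 91.4 in LMPC phloem (1.02 ± 0.35, adjusted p = 0.0417), on the same side as AT1G18540. The L21 probe set overlapped between the groups, with 285 to 659 in exudate and 353 to 520.1 in LMPC phloem (-0.05 ± 0.35, adjusted p = 0.931). L21 had no other measured gene. These probe sets were looked at after the values of the single loci were known.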
